A study of Mus musculus with 4 samples.

Results

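ATAC (Ada2a-containing) is a coactivator complex of animal cells that carries the histone acetyltransferase Gcn5 or its paralog Pcaf. The 6 genes described here, Yeats2, Zzz3, Csrp2bp, Mbip, Wdr5 and Dr1, encode subunits of ATAC that lie outside the acetyltransferase module. They were chosen by symbol, and all 6 were found among the 23259 genes with a value in every library and passed the filter of a mean of at least 1 FPKM (fragments per kilobase of transcript, scaled here to spike-ins), as 11932 genes did. The study compared KO clones of mouse embryonic stem cells, which lack Gcn5, with WT clones by sequencing of total RNA depleted of ribosomal RNA. There were 2 founder lines, 4 and 6, derived from day 3.5 blastocysts of Gcn5flox/flox mice, and each gave 1 WT and 1 KO clone, so each group had 2 clones. All 4 clones had gone through transient transfection of an EF1α-EGFPcre plasmid and a sort after 72 hours. The KO clones, 4C2 and 6C4, came from GFP-positive cells and lack exons 3 to 18 of Gcn5 (Δ3-18), and the WT clones, 4-1 and 6-1, came from GFP-negative cells and keep the floxed alleles. All were cultured on fibroblasts treated with Mitomycin-C, in medium with LIF (1000 U/mL) and 15% serum.

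ATAC joins an acetylation activity to subunits that read histone tails. In mammals the module of Gcn5 or Pcaf with an Ada2 protein, Ada3 and Sgf29 is built into either ATAC or SAGA, with Ada2a in ATAC and Ada2b in SAGA. The remaining ATAC subunits hold the complex together, recognise modified or unmodified histone tails, or connect it with the TATA-binding protein TBP and with signalling kinases.

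Kat2a, the gene of Gcn5, was lower in both KO clones. Its level was 38.7 FPKM in WT of line 4, 34.4 FPKM in WT of line 6 and 11.5 FPKM in each KO clone (limma log2 fold change -1.58, SE 0.23, adjusted p = 0.0112). The groups did not overlap. The call was lost when either KO library was left out (adjusted p of 0.426 to 0.472, log2 fold changes of -1.59 to -1.58). It was also lost without a filter on low values (-1.58, adjusted p = 0.606), with libraries centred on their median gene (-1.28, adjusted p = 1.00) and with quantile normalization (-1.25, adjusted p = 1.00). It was kept with the founder line as a block, which compares clones within a line, at an adjusted p of 8.19e-11, and with the block on centred values at 0.0469. The block leaves 1 residual degree of freedom, so the value of 8.19e-11 rests on the spread of genes of like level. The deposited values are 1 number per gene, so reads of the exons outside the deletion are part of the KO value.

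Most genes were listed lower in KO, and the median tested gene lay at -0.44 in line 4 and -0.19 in line 6 on the scale of log2(FPKM + 1). Changes of the 6 subunits are therefore given both as deposited and relative to the median gene of the same line. Why most genes are lower was not tested. The summed FPKM was 680168 to 757931 in WT and 520491 to 538257 in KO, and the depth behind the values is unknown. Markers of pluripotent cells summed to 5328 and 4216 FPKM in WT of lines 4 and 6 and 3361 and 3486 FPKM in KO. All 10 of 10 were at 1 FPKM or more in every library. Of these, 9 lay below the median gene in both lines, against 27.1% of all tested genes. Their medians relative to the median gene were -0.22 in line 4 and -0.081 in line 6. The 12 fibroblast markers summed to 205 and 174 FPKM in WT of lines 4 and 6 and 153 and 209 FPKM in KO. Of them, 10 were at 1 FPKM or more in every library, and the source of these transcripts was not tested. S100a4 alone gave 47.1 and 91.7 FPKM in WT of lines 4 and 6 and 33.7 and 98.9 FPKM in KO. The sum of the 12 was 1.20 times as high in KO as in WT in line 6 and 0.746 times as high in line 4. Of the 11 tested, 0 lay below the median gene in line 6 (median 0.44) and 4 in line 4 (median 0.058). The part of the fibroblast markers in the results was not tested. Of 6 markers of extraembryonic endoderm, 0 to 3 per library reached 1 FPKM. In such bulk RNA, fewer cells of a type and less RNA per cell cannot be told apart.

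Wdr5 was by far the most abundant of the 6 transcripts, and the other 5 lay close to each other at a moderate level. FPKM are scaled to gene length, so these levels can be set side by side. Wdr5, a WD-repeat protein that ATAC shares with the COMPASS and Mll histone methyltransferases, had a mean of 75.8 ± 12.9 FPKM (SD over the 4 libraries) and a level above 90.8% of tested genes. Mbip followed at 16.3 ± 2.81 FPKM and Dr1 at 15.5 ± 2.47 FPKM. Zzz3 stood at 12.7 ± 2.10 FPKM, Yeats2 at 11.9 ± 2.56 FPKM and Csrp2bp at 11.9 ± 2.03 FPKM, near the middle of the distribution, where the median tested gene had 9.68 FPKM. Wdr5 was 4.65 times as high as Mbip, and the ranges of the pair did not overlap. Mbip lay above Dr1, and Dr1 above Zzz3, in 4 of 4 libraries, and in both pairs the ranges over the libraries overlapped. Zzz3, Yeats2 and Csrp2bp had no fixed order, since each neighbour in that order was the higher one in 2 of 4 libraries. The share of Wdr5 in the set hardly varied. It made up 53.1% and 52.5% of the summed FPKM of the 6 genes in the WT clones of lines 4 and 6, and 52.5% and 52.3% in the KO clones. Zzz3 made up 7.67% and 8.09% in WT and KO of line 4 and 9.49% and 10.3% in line 6. The single-exon paralog Wdr5b was listed at 0.427 to 0.897 FPKM, so Wdr5 was 77.0 to 168 times as high.

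Within each founder line, the KO clone had the lower value for all 6 subunits, and 0 of the 6 passed the test (limma, adjusted p under 0.05), against 0.0168% of all tested genes. The background for the direction is similar, since 86.3% of all tested genes, and 94.9% of those within the same range of levels, were lower in both lines. Yeats2 encodes a large subunit whose YEATS domain binds acylated lysines of histone tails. In line 4 its level was 15.6 FPKM for WT against 9.94 FPKM for KO, and in line 6 11.2 FPKM for WT against 10.7 FPKM for KO. The WT clones differed more from each other than the KO clone of line 6 did from its WT clone, and the groups came close without overlapping (log2 fold change -0.34, SE 0.25, limma adjusted p = 0.445). It was -0.12 without the WT clone of line 4 and -0.56 without that of line 6. Zzz3, named for a zinc finger of the ZZ type that binds the end of the histone tail, stood at 13.3 and 9.70 FPKM in WT and KO of line 4. In line 6 its level was 14.6 FPKM for WT and 13.4 FPKM for KO. The KO clone of line 6 was level with the WT clone of line 4, so Zzz3 was the 1 member whose groups overlapped (log2 fold change -0.27, SE 0.25, limma adjusted p = 0.46). It was -0.053 without the KO clone of line 4 and -0.48 without that of line 6.

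Csrp2bp, the older symbol of Kat14, encodes Atac2, a subunit with an acetyltransferase fold of its own. Its levels were 14.5 and 12.4 FPKM in WT of lines 4 and 6 and 10.1 and 10.5 FPKM in KO (log2 fold change -0.36, SE 0.25, limma adjusted p = 0.445). Mbip, a protein first described as an inhibitor that binds the kinase Map3k12, was listed at 19.4 and 18.0 FPKM in WT and at 13.8 and 14.0 FPKM in KO. Its KO clones were nearly equal, and both lay below both WT clones (log2 fold change -0.40, SE 0.24, limma adjusted p = 0.445). Wdr5 had 91.7 and 80.7 FPKM in WT, and 63.0 and 68.0 FPKM in KO. It had the smallest p of the 6 (log2 fold change -0.39, SE 0.21, unadjusted p = 0.0796, limma adjusted p = 0.445). Dr1, the histone-fold subunit NC2β, pairs with Drap1 in a repressor of TBP. Its levels were 18.3 and 16.8 FPKM in WT and 13.4 and 13.5 FPKM in KO, again with KO clones alike and below WT (log2 fold change -0.36, SE 0.24, limma adjusted p = 0.445).

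**Figure D1:**
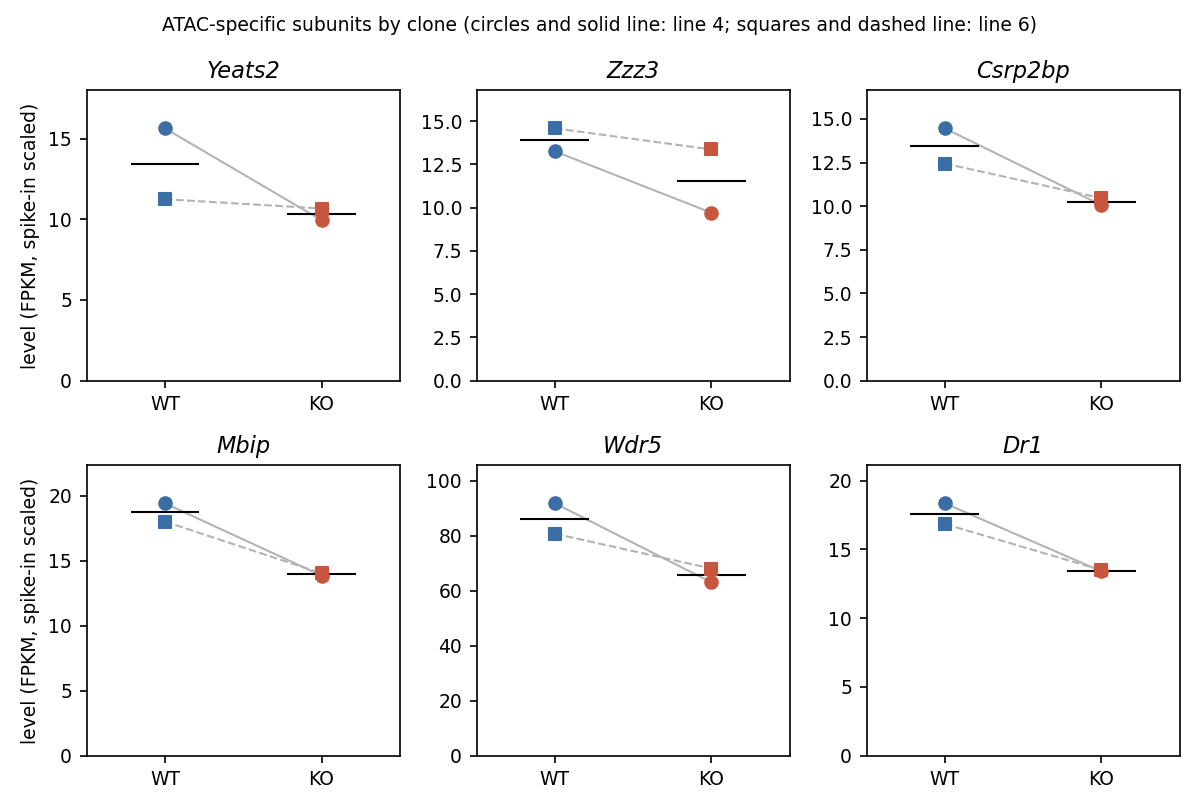
Level of each subunit in FPKM (y axis, from 0) in the WT and KO clones (x axis). Circles joined by a solid line are line 4, squares joined by a dashed line are line 6, and black bars are group means. Every KO clone lies below the WT clone of its line, and Zzz3 is the panel in which the groups overlap.

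In 5 of the 6 genes both KO clones lay below both WT clones, where 59.8% of all tested genes and 70.1% of those in the same range of levels did. At an unadjusted p under 0.05 there were 0 of 6 members, against 5.46% of all genes for lower values. With the founder line as a block 0 of 6 passed as well, where 0.796% of genes passed. Wdr5 had an unadjusted p of 0.0447 there and an adjusted p of 0.249, and 19.8% of all genes had an unadjusted p under 0.05. The 95% intervals of the log2 fold changes reached from -0.89 to 0.26 over the 6 genes, so changes up to these sizes are compatible with 2 clones a group. P-values without the block include the difference between the founder lines.

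Relative to the median gene, the 6 subunits lay close to 0 in both lines. In line 4 the median of the 6 was -0.026 on the log2 scale and in line 6 -0.052, with a mean of the lines of -0.039 ± 0.018 (SD, n = 2 lines). Genes in the same range of levels had medians of -0.031 and -0.020. Csrp2bp held the same place in both lines, at -0.038 and -0.046, and Wdr5 lay at -0.091 and -0.058. Zzz3 lay slightly above the median gene in both, at 0.031 in line 4 and 0.067 in line 6. Mbip lay at -0.014 in line 4 and -0.15 in line 6. Below the median gene in both lines were 3 of 6 members, against 27.1% of all genes, and above it in both was 1, against 27.1%. Among the 4197 genes in the same range of levels, 1467 lay below it in both lines and 728 above it in both. Yeats2 and Dr1 lay on opposite sides in the lines, as 45.8% of genes did. Yeats2 was at -0.16 in line 4 and 0.12 in line 6, the widest gap of the set at 0.27, and Dr1 was at 0.019 and -0.11. The gap between lines had a median of 0.13 over all tested genes, and the middle 90% of them ran from -0.28 to 0.33 in line 4 and from -0.25 to 0.31 in line 6, which took in all 6 members. With 1 clone per genotype in a line, none of these values has a replicate. With the lines as blocks, and each library centred on its median gene, the 95% intervals of the 6 genes together ran from -0.31 to 0.24. The limma adjusted p there was 0.886 to 0.97, where 0.277% of genes passed. At an unadjusted p under 0.05 there were 0 of 6, against 5.73% of all genes. Without the block, the intervals on centred values were wider, from -0.47 to 0.55.

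**Figure D2:**
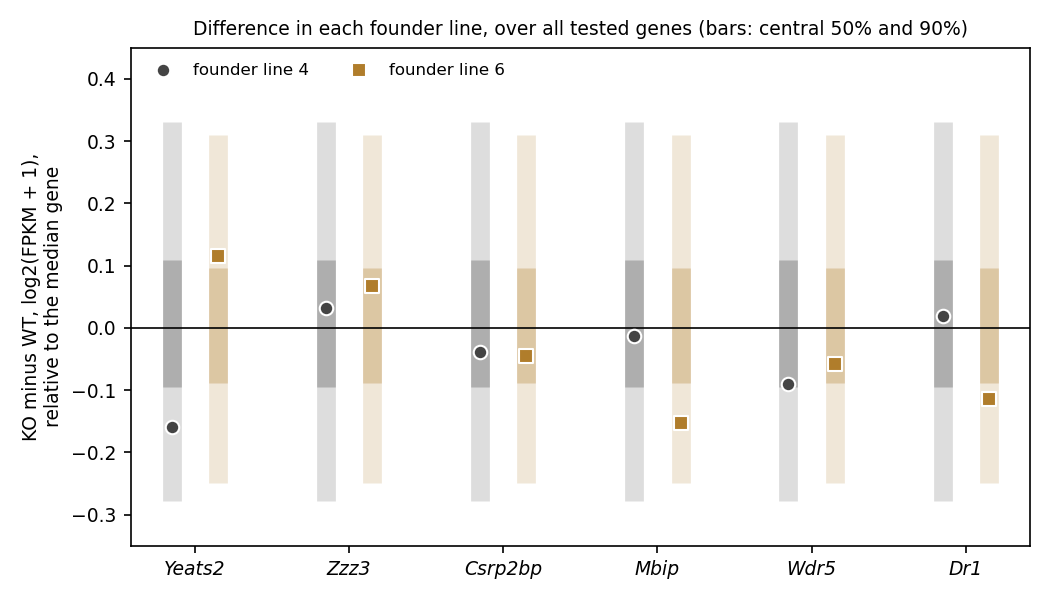
Difference between KO and WT in log2(FPKM + 1), less that of the median tested gene (y axis), for each subunit (x axis) in line 4 (circles) and line 6 (squares). Dark and pale bars span the central 50% and 90% of all tested genes in that line, and all 12 points lie within the pale bars.

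Between the founder lines, Zzz3 had the largest difference of the 6 subunits over both genotypes, while in WT that of Yeats2 was larger (-0.30 relative to the median gene). It was higher in line 6 in both genotypes, at 14.6 against 13.3 FPKM in WT and 13.4 against 9.70 FPKM in KO. As log2 differences relative to the median gene, this was 0.27 in WT and 0.31 in KO. Both clones of line 6 lay above both of line 4 only for Zzz3 among the 6, against 16.3% of all genes, and for 0 of 6 was it the other way round, against 17.4%. As deposited Zzz3 did not pass (log2 difference of line 6 from line 4 0.28, SE 0.22, limma adjusted p = 0.513), nor did any of the 6, where 9.13% of all tested genes passed. Their unadjusted p was 0.208 to 0.849, and 21.4% of all genes had one under 0.05. On values centred on the median gene Zzz3 passed (0.32, SE 0.079, limma adjusted p = 0.0344), as did 29.6% of all tested genes; 16.0% of all tested genes passed as higher in line 6. The other 5 did not pass on that scale, and Yeats2 was the next at -0.13 (adjusted p = 0.302). Yeats2 was lower in line 6 in WT, at 0.719 times the level of line 4, and 1.07 times as high in KO. Csrp2bp, Mbip, Wdr5 and Dr1 differed by at most 0.11 between lines in either genotype relative to the median gene, where the central 50% of genes ran from -0.23 to 0.21 in WT. The lines also differ in fibroblast markers, of which 2 of 11 tested passed as higher and 4 as lower in line 6. Of the extraembryonic endoderm markers 2 of 2 tested passed as higher in line 6, Gata4 at 0.64 and Dab2 at 1.08, and of 10 pluripotency markers 1 passed as lower, Tcl1 at -1.31. The part of these markers in the value of Zzz3 was not tested.

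The profiles over the 4 libraries were compared after centring on each library's median gene and on the gene's own mean. Likeness is the Euclidean distance between such profiles on the log2 scale, over 4 libraries. Mbip and Dr1 were the most alike pair, at a distance of 0.037, followed by Csrp2bp and Wdr5 at 0.054. Distances among these 4 genes were at most 0.089. Yeats2 and Zzz3 were the least alike, at 0.47. Relative to its own mean, Yeats2 was at 0.14 in WT of line 4 and -0.10 in WT of line 6, while Zzz3 was at -0.19 and 0.14. Among 10407 other genes, the nearest to Yeats2 was Evc at 0.025, to Zzz3 Pno1 at 0.0076, and to Csrp2bp Epha4 at 0.010. For Mbip it was Pnldc1 at 0.012, for Wdr5 Gak at 0.0093 and for Dr1 Stx6 at 0.011. These are few libraries for such a measure. Within a distance of 0.1 lay 893 genes for Csrp2bp and 216 for Yeats2, the most and the fewest of the set.

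**Figure D3:**
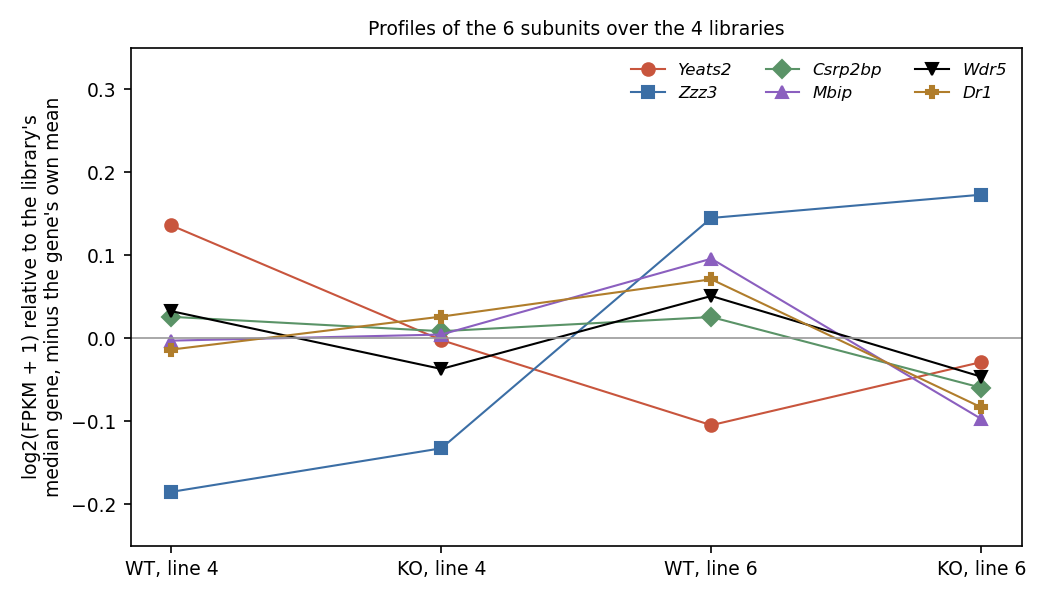
Profile of each subunit over the 4 libraries (x axis) as log2(FPKM + 1) less that of the library's median gene and less the gene's own mean (y axis). Zzz3 runs from -0.19 to 0.17 and is higher in line 6, Yeats2 is highest in WT of line 4, and the other 4 stay within 0.10 of 0.

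Promoter sequences are shown for Yeats2, the subunit whose KO minus WT differed most between lines, and for Mbip and Dr1, the pair with the closest profiles. They come from RefSeq on GRCm38.p6, a later build than the mm9 of the expression files, and all 6 genes were matched, Csrp2bp under Kat14. Each run is the 250 bases before a start site, 5′ to 3′ on the gene's strand. Capitals mark GC boxes (GGGCGG), the CCAAT box (CCAAT) and the E-box bound by Myc and Max (CACGTG), on either strand. The windows are chr16:20140813-20141062 on the plus strand for Yeats2, chr12:56345895-56346144 on the minus strand for Mbip and chr5:108268647-108268896 on the plus strand for Dr1.
Yeats2: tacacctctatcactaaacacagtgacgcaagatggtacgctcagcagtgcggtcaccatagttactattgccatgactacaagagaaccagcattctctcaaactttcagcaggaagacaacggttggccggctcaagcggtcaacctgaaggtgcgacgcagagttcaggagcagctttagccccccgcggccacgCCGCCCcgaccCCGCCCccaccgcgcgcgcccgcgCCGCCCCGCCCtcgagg
Mbip: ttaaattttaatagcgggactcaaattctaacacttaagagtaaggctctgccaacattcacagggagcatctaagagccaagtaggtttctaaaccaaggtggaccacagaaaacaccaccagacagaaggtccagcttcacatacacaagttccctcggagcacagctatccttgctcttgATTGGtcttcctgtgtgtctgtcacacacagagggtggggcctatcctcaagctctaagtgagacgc
Dr1: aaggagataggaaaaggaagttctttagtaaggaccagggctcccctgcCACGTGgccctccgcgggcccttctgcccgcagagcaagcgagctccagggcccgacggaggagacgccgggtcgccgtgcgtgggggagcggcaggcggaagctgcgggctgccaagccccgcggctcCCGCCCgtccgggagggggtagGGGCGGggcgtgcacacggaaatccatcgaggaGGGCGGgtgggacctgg

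The closest pair in expression did not share these features. The window of Dr1 was 71.2% G and C, with a CpG ratio of observed to expected of 0.812, while that of Mbip was 47.2% G and C with a ratio of 0.217. That of Yeats2 had 61.6% and 1.01. The median over all 32851 windows of the table was 52.4% and 0.373. Yeats2 held 4 GC boxes, of which 2 overlap by their end, Dr1 held 3 and Mbip 0. At least 1 GC box stood before a start site of 5 of the 6 genes. Counted by window this was 7 of 8, where 32.7% of all windows held one. Of these 7 windows, 3 belong to Zzz3. The share among windows of like G and C content was not counted. The E-box was found only in Dr1 among the 6, against 6.02% of all windows, and the CCAAT box only in Mbip, against 33.8%. The ETS core (CCGGAA) was found in 2 of the 3 windows of Zzz3, against 12.0%. The TATA box (TATAAA) and the core of the cyclic AMP response element (TGACGT) were in 0 of the 8 windows of the set, against 12.4% and 6.47% of all windows. A match is a string of letters, and no binding was measured here.

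The shared acetyltransferase module was likewise listed lower in KO, in 5 of 5 genes in both lines, against 86.3% of all tested genes. Apart from Kat2a, 0 of them passed the test, against 0.0168% of all tested genes. Tada2a, whose product Ada2a marks ATAC and not SAGA, stood at 42.4 and 35.4 FPKM in WT and 29.2 and 27.3 FPKM in KO (log2 fold change -0.44, limma adjusted p = 0.445). It lay at -0.078 and -0.18 relative to the median gene in lines 4 and 6. Tada3, the Ada3 subunit, was at 0.076 and -0.11. Ccdc101, which encodes the tail-binding subunit Sgf29, was at -0.065 and 0.063, and Kat2b, the gene of Pcaf, at -0.12 and 0.082. Kat2a is the deleted gene, so the higher ratio of the subunits to it in KO follows from its own lower value. In WT, Mbip stood at 0.501 and 0.523 times the level of Kat2a in lines 4 and 6, and in KO at 1.20 and 1.21 times. Wdr5 stood at 2.37 and 2.34 times that level in WT and 5.48 and 5.89 times in KO. Set against Tada2a, the ratios were closer between genotypes. Mbip was 0.458 and 0.509 times as high as Tada2a in WT and 0.474 and 0.514 times in KO, and Csrp2bp 0.341 and 0.352 times in WT and 0.345 and 0.383 times in KO. Zzz3 was less steady, at 0.313 and 0.412 times in WT and 0.333 and 0.490 times in KO. Yeats2 moved opposite ways in the lines, at 0.369 and 0.318 times in WT and 0.341 and 0.391 times in KO.

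A further 5 genes encode factors reported with ATAC or paired with its histone-fold subunits. All 5 were lower in KO in both lines, against 86.3% of all tested genes, and 0 passed the test, against 0.0168%. Their median was 0.013 in line 4 and 0.012 in line 6 relative to the median gene. Chrac1, a histone-fold protein of the CHRAC remodeller, was the lowest, at 18.0 and 16.9 FPKM in WT and 12.4 and 11.8 FPKM in KO (log2 fold change -0.49, limma adjusted p = 0.445). Its groups did not overlap, and it lay at -0.061 and -0.30 relative to the median gene. Pole3, its partner and a small subunit of DNA polymerase epsilon, was at 0.20 in line 4 and -0.24 in line 6. Pole4, another histone-fold subunit of that polymerase, was at 0.013 and 0.073. Hcfc1, a chromatin adaptor, was at -0.022 and 0.085, and Map3k7, the kinase Tak1, was at 0.021 and 0.012.

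Wdr5, Dr1, Yeats2 and Mbip have partners or relatives outside ATAC. The COMPASS and Mll list had 11 of 12 genes with values. Of these, 10 were lower in KO in both lines, against 86.3% of all tested genes, and 0 passed the test, against 0.0168%. The median of this list was 0.028 above the median gene in line 4 and 0.032 above it in line 6. Its mean of the 2 lines ran from -0.11 for Rbbp5, a core subunit beside Wdr5, to 0.14 for Cxxc1, a CpG-binding subunit. The 6 genes of NC2 and the TBP machinery were lower in both lines, with 0 past the test, against 86.3% and 0.0168% of all tested genes. Their means of the 2 lines ran from -0.11 for Gtf2b, a general initiation factor, to -0.014 for Gtf2a1, a subunit of TFIIA. Of the other YEATS proteins, Yeats4 lay at 0.00075 and Mllt3 at 0.23, with Mllt3 at 0.13 in line 4 and 0.33 in line 6, above the middle 90% of genes in that line. Map3k12, the kinase bound by Mbip, lay at 0.075, and Map3k13 was under the filter at 0.136 to 0.168 FPKM.

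SAGA subunits gave similar counts of genes lower in both lines and of genes past the test. A smaller part of them than the 5 of 6 ATAC-specific subunits had both KO clones below both WT clones. The SAGA core list had 12 of 13 genes lower in KO in both lines, against 86.3% of all tested genes, and 0 past the test, against 0.0168%. Both KO clones lay below both WT clones in 7 of 13, against 59.8%. The core medians were 0.036 in line 4 and 0.054 in line 6 relative to the median gene. The core ran from -0.35 for Supt3h to 0.16 for Sf3b3, a protein shared with the spliceosome. The deubiquitinase list had 4 of 4 lower with 0 past the test, and both KO clones below both WT clones in 1 of 4. It ran from -0.060 for Atxn7l3 to 0.14 for Atxn7. Over all 48 tested partner genes, 45 were lower in both lines, against 86.3% of all genes. Kat2a was the 1 that passed, where 0.0168% of all tested genes did. At an unadjusted p under 0.05 there were 2 of 48, Kat2a and Supt3h, both lower, against 5.46% of all genes for lower values. The difference between the ATAC-specific subunits and these lists was not tested, and the ranges of the lists overlap.

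**Figure D4:**
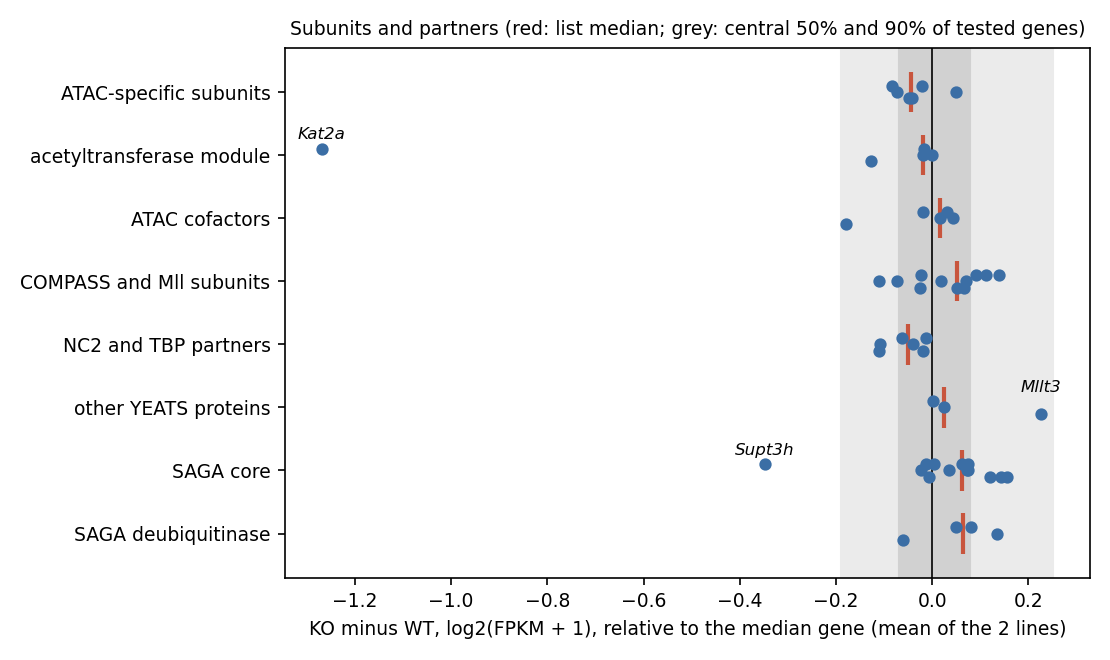
KO minus WT in log2(FPKM + 1) relative to the median gene, as the mean of both lines (x axis), for each tested gene of 8 lists (rows). Blue points are genes, red bars list medians, and grey bands the central 50% and 90% of all tested genes. The 6 ATAC-specific subunits lie between -0.084 and 0.049, and Kat2a lies far below all others.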

How the data were processed

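RNA was measured in 2 WT and 2 KO clones. Each file gives FPKM that the authors normalized to spike-ins, per the file headers. The submitters' processing notes name the build mm9 and, without roles, TopHat2 2.0.9, Bowtie 0.12.8, HTSeq, edgeR and affy. The sources used here do not give how the ERCC spike-ins scaled the values, or whether counting used strand. Of each clone's RNA, 1 µg received 2 µL of spike-in mix diluted 100-fold. Of 23376 entries per file, 92 spike-ins and 25 entries without a partner in the other files were left out. Genes without signal share a value of 0.00937 to 0.0107 FPKM. Depth is unknown, so no counting interval is given.

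On the scale of log2(FPKM + 1), where changes of low genes are understated, limma 3.58.1 (R 4.3.3) compared KO with WT (trend, two-sided, Benjamini-Hochberg over 11932 genes, threshold 0.05), without a block. Line 6 was tested against line 4 with genotype as a term. That fit has 1 residual degree of freedom and an infinite prior df, so its p-values rest on the spread of genes of like level. The script was tested on simulated data with independent noise in each library. Those data held no founder-line effect and no shift of most genes, so they do not show how the fit handles either. Replicate numbers are founder lines, per the clone names, so they pair the samples, and same-line deviations from the group means correlated at r = 0.70 across genes. P-values measure the spread between these clones only in part. The KO fit without a block has 2 residual degrees of freedom and a prior df of 16.4, so genes of like level weigh more. With the block it has 1 residual degree of freedom and, on values as deposited, an infinite prior df.

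The members and gene lists were chosen with earlier results of these data known. Named are the 6 members, Kat2a, all genes of the acetyltransferase module and cofactor lists, the highest and lowest gene of each other list, and the gene with the closest profile to each member. Supt3h is described again in the closing section, chosen after its values were seen. RefSeq places Pet117 over the start of Csrp2bp on the same strand, the pseudogene Gm10241 within Yeats2 on the other strand, and the end of Ak5 over that of Zzz3 by 12 bases on the other strand. Reads of these genes may be counted with the members. Ak5 was at 0.180 to 0.365 FPKM.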

Additional observations from a re-analysis of the deposited data

Results flagged for a closer look

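Yeats2 and Dr1 were the members whose KO minus WT, relative to the median gene, pointed opposite ways in the founder lines. Yeats2, the reader of acylated histone tails, lay at -0.16 in line 4 and 0.12 in line 6. Dr1, the NC2β subunit, lay at 0.019 in line 4 and -0.11 in line 6. As deposited both genes were lower in KO in both lines. The difference between the lines was not tested, since each line has 1 clone per genotype, and 45.8% of all tested genes lay on opposite sides in this way.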

How the results depend on the processing

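None of the 6 members passed the KO test in any of the 12 alternatives run, with limma adjusted p of 0.228 to 1.00, and the replicate block changed no call of a member. Without single libraries the log2 fold changes ran from -0.56 to -0.12 for Yeats2, -0.48 to -0.053 for Zzz3 and -0.48 to -0.26 over the other 4. Zzz3 turned to 0.040 above WT on centred values, with or without the replicate block, and to 0.064 with quantile normalization. The number of genes past the KO test, 2 as first fitted, was 95 with the replicate block, 33 with the replicate block on centred values and 91 with the replicate block and a robust spread. It was 0 on centred values, with quantile normalization and without a filter (at an unadjusted p under 0.05, 60, 57 and 176 genes were higher and 24, 19 and 1568 lower), and 0 to 133 without single libraries. For line 6 against line 4, 1089 genes passed as first fitted, 3531 on centred values, 3539 on centred values with a robust spread, 3420 with quantile normalization, 236 with the founder line alone and 0 without a filter (at an unadjusted p under 0.05, 1923 were higher and 1919 lower). Zzz3 passed that test on centred values, with quantile normalization (adjusted p = 0.0374) and on centred values with a robust spread (0.0332). Wdr5 turned to 0.0045 on centred values, with and without a robust spread. Without single libraries that fit has no residual degrees of freedom, so it gave values and no test. They ran from 0.13 to 0.42 for Zzz3, -0.44 to 0.092 for Yeats2, -0.20 to 0.051 for Csrp2bp, -0.10 to 0.017 for Mbip, -0.18 to 0.11 for Wdr5 and -0.12 to 0.0094 for Dr1. The median of the members relative to the median gene, -0.039, was -0.21 without a filter, where the median gene is one with little signal, and -0.0066 against genes of at least 10 FPKM. Without single libraries it was -0.052 to -0.026, which is the value of the line left. The fits with a robust spread on blocked or centred values were added after the data were seen. Depth is not known and limits what can be said of small differences.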

Other observations

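Supt3h, the SAGA subunit related to yeast Spt3, which contacts TBP, was the partner gene besides Kat2a that lay below the central 90% of all tested genes in both lines. It was listed at 3.66 FPKM in each WT clone and at 1.76 and 2.14 FPKM in the KO clones of lines 4 and 6. The WT clones were equal to this precision, and both KO clones lay below them. Relative to the median gene it lay at -0.31 in line 4 and -0.39 in line 6, where the central 90% of genes began at -0.28 and -0.25. It did not pass the test over all genes (log2 fold change -0.66, SE 0.26, unadjusted p = 0.0186, limma adjusted p = 0.445). Blocking on founder line gave a limma adjusted p of 0.116 for values as deposited. For values centred on the median gene it was 0.832, at a log2 fold change of -0.36. Supt3h was picked from 48 tested partner genes after its values were seen. The share of all tested genes that lay this low in both lines was not counted.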
